A study of Mus musculus with 8 samples.

Results

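Replication-dependent histone genes were followed in *Bapx1*-EGFP positive cells of the embryonic mouse spleen with and without *Bapx1*. Members were all probes whose current symbol is *H2ac*, *H2bc*, *H2bu*, *H3c* or *H4c* followed by a number, or *H1f1* to *H1f5*, which gave 85 of the 45281 probes on the array. They covered 56 of the 19053 genes named on the array, 6 probes for H1, 23 for H2A, 19 for H2B, 18 for H3 and 19 for H4. *Bapx1* null samples (4 arrays) were homozygous for *Bapx1* tm4.Tlu, in which EGFP follows the start codon and replaces a short stretch of coding sequence. *Bapx1* wildtype samples (4 arrays) carried *Bapx1* tm2.Tlu, which keeps the coding sequence and adds EGFP through an internal ribosome entry site, and which the paper's introduction writes as heterozygous. All samples were taken at E12.5 (embryonic day) on a C57BL/6J;129 background and sorted by EGFP, so reporter allele and genotype cannot be told apart. Each array holds RNA from 1 population of sorted cells, the number of embryos per population is not given, and the p-values therefore measure the spread between these populations. The comparison asks which histone transcripts differ with *Bapx1* genotype in cells of the spleen primordium.

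Histones package DNA into nucleosomes. H2A pairs with H2B, H3 pairs with H4, and the linker histone H1 binds the DNA between nucleosomes. The replication-dependent genes lie in clusters, have no introns and are transcribed mainly in S phase, when new DNA has to be packaged. Their mRNAs end in a conserved stem-loop in place of a poly(A) tail. The labelling kit used for these arrays primes from poly(A) tails, and how completely it reached each histone mRNA was not tested. Many of these genes are near-identical copies. The sequences of the probes were not used here, so a probe is given under its annotated gene and may also read a paralog.

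The data as a whole limit what can be read from the histones in a few ways. Between 42.0 and 44.5% of probes were detected on each array. Both *Nkx3-2* (*Bapx1*) probes were above background on 4 of 4 null arrays and 0 of 4 wildtype arrays, at least 3.79-fold and at least 2.99-fold higher in null (limma adjusted p = 1.38e-05 and 2.18e-05), and where in the transcript these probes lie was not examined, so they check nothing about the deleted part. Both passed the detection filter through the null arrays alone, so they had to differ. They show no loss of the transcript in null, and loss of the protein was not measured, so they do not check the labels. Null and wildtype in the following mean the libraries labelled so. Of the spleen and gut mesenchyme markers *Nkx2-5* was lower in null (log2 difference -2.31) and *Barx1* higher (1.47), and *Tlx1*, a defining gene of the spleen primordium, was not kept by the detection filter. Within genotypes 56.9% of the variance over all probes tested lay on 1 axis between arrays. The position of each array on this axis was not computed. By their mean level, the splicing regulators stood lowest on null replicates 2 and 3 and on wildtype replicate 3 within their genotypes. The calls are given with these arrays and without them. In sorted cells, fewer cells in S phase and less histone mRNA per S phase cell cannot be told apart.

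The upstream sequences of the histone genes show what the classes share and where they part. RefSeq promoters (GRCm38.p6, from 250 bases before to 50 bases after the start site) were matched by symbol for 51 of the 56 genes, 52 promoters in all. They were searched on both strands for CCAAT, the CAAT box, for TATAAA, the TATA box, and for ATTTGCAT, the octamer known from H2B promoters, and none of these motifs contains another. CCAAT was present in 5 of 5 H1, 16 of 16 H2A, 13 of 13 H2B and 7 of 7 H3 promoters, but in 3 of 11 H4 promoters, against 37.4% of all 32851 promoters in the table. TATAAA was present in 61.5% of the histone promoters and in 13.6% of all promoters. The octamer was present in 6 of 16 H2A and 7 of 13 H2B promoters, in none of the 5 H1, 7 H3 and 11 H4 promoters, and in 1.74% of all promoters. A match is a description of the letters and no evidence of a bound site.

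The windows below, 30 bases each and 5′ to 3′ on the gene's own strand, belong to genes whose values are given further on, and their motif matches on either strand are in capitals. The first pair is 1 site read from both sides, since *H2ac12* and *H2bc12* start 178 bases apart on opposite strands at chr13:22035780-22035809.
H2ac12: tagaacttcgtATGCAAATaaagtgaaatg
H2bc12: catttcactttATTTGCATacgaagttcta
H2ac4: tgcaggcctttATGCAAATgaggagctcaa
H2ac18: ggacgcgtgtgagCCAATgagagcgtcggg
H2bu2: atTTTATAtttgtCCAATcagataagagta
H3c10: gcagccattttgaCCAATcagaactcggcc
H3c13: ctgctttctgggcCCAATcaagacgaagat
H4c12: tccgcccgccgcagTATAAAaaggcggcgc
The *H2ac4* window lies at chr13:23750948-23750977, that of *H2ac18* at chr3:96245458-96245487, that of *H2bu2* at chr11:58948822-58948851 and that of *H3c10* at chr13:21717562-21717591, all on the plus strand. The *H3c13* window lies at chr3:96268614-96268643 on the plus strand and that of *H4c12* at chr13:21750554-21750583 on the minus strand. In *H2ac12* and *H2ac4* the octamer stands in reverse, first base at -155 and -129 from the start site, while in *H2bc12* it stands forward at -30. The CCAAT of *H3c10* begins at -53, that of *H2bu2* at -76, and those of *H2ac18* and *H3c13* at -26 and -27.

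**Figure D1:**
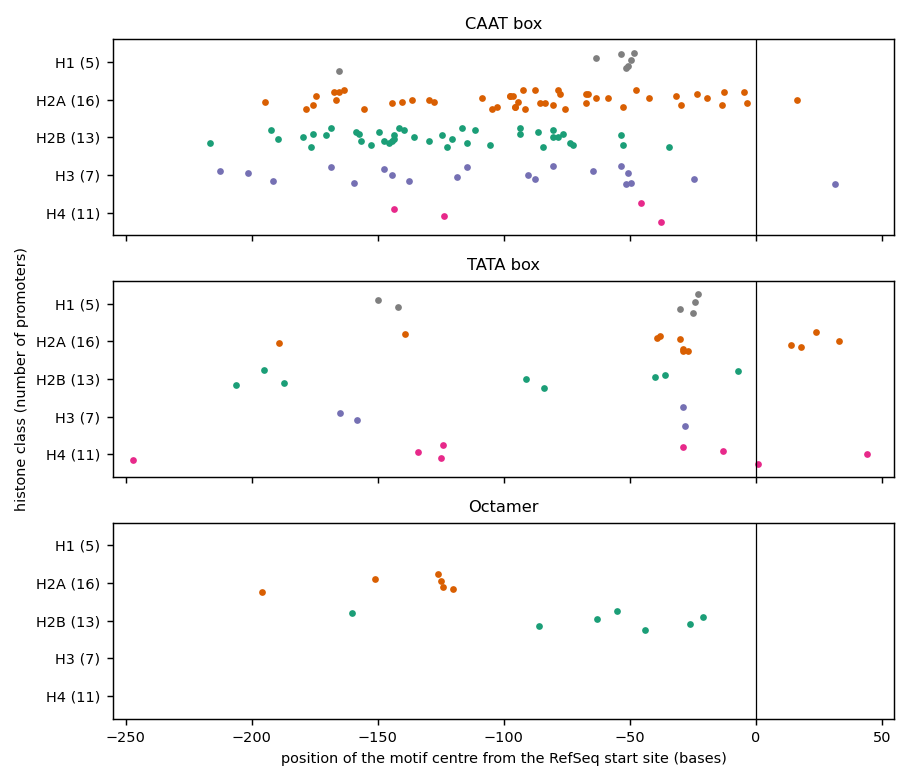
Positions of the CAAT box, TATA box and octamer matches (both strands) in the RefSeq promoters of the histone genes, in bases from the start site, 1 point per match and 1 row per class with its number of promoters. Octamer matches appear in H2A and H2B only, centred between -196 and -120 in H2A and between -160 and -21 in H2B.

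Probes were tested where 4 or more arrays detected them (detection p under 0.05). Of the 85 histone probes 81 could be joined to the signal table and 65 passed, from 45 genes (H1 3, H2A 20, H2B 15, H3 12 and H4 15 probes), and 58 of them were detected on all 8 arrays. Only *H2bu2* passed through 1 genotype alone, so it had to differ. Of the 16 joined probes that did not pass, 10 were detected on no array and 6 on 1 or 2 arrays. The 4 unjoined probes (*H3c7*, 2 probes, *H4c2* and *H1f4*) matched no signal row that was detected on any array. *H1f1*, *H1f3*, *H1f4*, *H2ac1*, *H2ac6*, *H2bc1*, *H2bc3*, *H2bc8*, *H2bc18*, *H4c3* and *H4c14* had no probe that passed, and 8 of the 64 RefSeq genes of this kind had no probe (*H2ac14*, *H2ac23*, *H2bc13*, *H2bc22*, *H2bc23*, *H3c2*, *H3c11* and *H3c15*).

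Few histone probes differed between the genotypes, and the differences were small. In limma, with Benjamini-Hochberg adjustment over all 19841 probes tested and a threshold of 0.05, 9 of the 65 histone probes (13.8%) were higher in null and 0 were lower. Over all probes 41.9% passed, 21.6% higher and 20.3% lower in null. At an unadjusted p under 0.05 there were 16 histone probes (24.6%) against 51.3% of all probes. The classes were uneven, with 9 of 12 probes in H3 (75.0%), above the share of all probes. H1 had 0 of 3, H2A 2 of 20, H2B 4 of 15 and H4 1 of 15. Of the 16 probes 2 were lower in null (*H3c13* and 1 probe of *H3c10*) against 24.5% of all probes. An analysis of variance per probe called 1 lower (*H3c13*). The genotypes did not overlap at 9 histone probes (13.8%), null above at 7 and null below at 2, where 38.3% of all probes did not overlap (20.1% above and 18.2% below). A fold change over 1.5 was reached by 4 histone probes (6.15%, against 24.8% of all probes) and one over 2 by 0 (9.32% of all probes). The median log2 difference, null minus wildtype, was 0.046 over the histone probes and 0.0416 over all probes, and the median size of the difference was 0.174 against 0.309. The median SD was 0.237 in null and 0.156 in wildtype for the histone probes and 0.196 and 0.151 for all probes. The 9 calls were spread over H2A (2), H2B (3), H3 (3) and H4 (1), with 0 in H1. Without *H2bu2*, which had to differ, 8 of 64 probes were called, where 40.8% of all probes detected in both genotypes were.

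**Figure D2:**
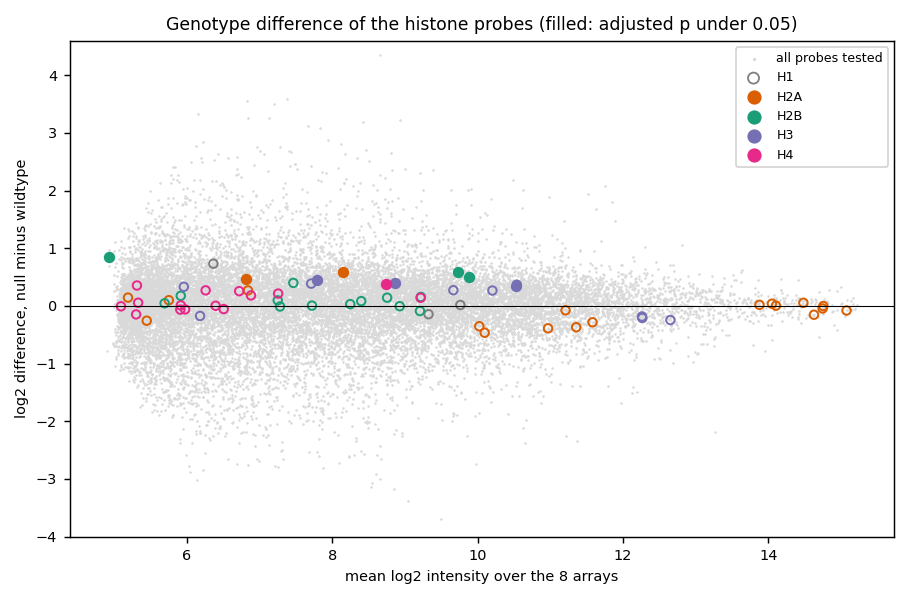
Log2 difference, null minus wildtype, against mean log2 intensity over the 8 arrays, for all 19841 probes tested (grey) and the 65 histone probes coloured by class, filled where the adjusted p is under 0.05. The histone probes lie between -0.47 and 0.85 while all probes reach from -3.69 to 4.36.

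How firm the 9 calls are depends on the arrays and on the scaling. Without 1 array at a time, 3 to 14 histone probes were higher in null and 0 or 1 lower: 4 without null replicate 2, 5 without null replicate 3, 14 without null replicate 4, 4 without wildtype replicate 1, 4 without wildtype replicate 2 and 3 without wildtype replicate 4. The share called over all probes moved as well, between 28.8 and 49.8%. With scaling by the median absolute deviation 12 histone probes were higher and 0 lower, and with median centring 2 and 0. The split over all probes, 4280 higher to 4032 lower here, was 4558 to 1681 and 2043 to 4669 under these scalings. All 9 probes kept a positive difference under each scaling and each array left out. When the mean level of the splicing regulators was added to the fit as a covariate, 7 of them turned negative, none of those past the threshold. In that fit 13.8% of the histone probes and 5.64% of all probes were called. In the main fit and every other alternative the histone share was the smaller. Without wildtype replicate 3 and null replicates 2 and 3, *H2ac4*, *H2bc12* ILMN_2655785 and *H2bu2* were still called higher, joined by *H2bc6* ILMN_2676243 (log2 difference 0.42, adjusted p = 0.0175). The other 6 calls were lost there, with *H2bc6* ILMN_1252995 at 0.32 (adjusted p = 0.0564), *H3c10* at 0.38 and 0.23 (0.0614 and 0.134), *H2ac18* at 0.34 (0.0859), *H4c11* at 0.26 (0.105) and *H3c4* at 0.26 (0.151). The splicing regulators themselves do not overlap between the genotypes, so that their covariate also takes up effects of genotype.

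H2A supplied the brightest histone signals. The brightest was *H2ac24*, at 15.05, 15.22, 15.27 and 14.60 (log2 intensity) on null replicates 1 to 4 and at 15.07, 15.01, 15.27 and 15.10 on wildtype replicates 1 to 4. Null replicate 4 was the lowest of all 8 arrays, and *H2ac24* was the brightest probe of the whole array on null replicate 3 and wildtype replicate 3, where quantile normalization sets its value. The log2 difference was -0.08 ± 0.15 (SE, adjusted p = 0.697). *H2ac4* had the clearest difference of the class, with 8.45, 8.52, 8.61 and 8.15 on the null arrays and 7.55, 7.89, 8.10 and 7.83 on the wildtype arrays. All null arrays lay above all wildtype arrays, by a log2 difference of 0.59 ± 0.14 (adjusted p = 0.0106).

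*H2ac18*, an H2A gene of the chromosome 3 cluster, had 3 probes, of which 2 passed the filter and 1 was detected on 1 null array only. ILMN_1231053 had 7.03, 7.14, 7.30 and 6.72 on the null arrays and 6.64, 6.45, 6.70 and 6.52 on the wildtype arrays, without overlap (log2 difference 0.47 ± 0.13, adjusted p = 0.0198). ILMN_1228849 did not pass, with a difference of 0.10 ± 0.16 (adjusted p = 0.645). The first probe lost its call without null replicate 2, wildtype replicate 2 or wildtype replicate 4. *H2ac8* had 6.92, 6.95, 7.19 and 6.83 on the null arrays and 6.42, 6.70, 6.95 and 6.74 on the wildtype arrays, which overlap (0.27 ± 0.13, adjusted p = 0.124).

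A group of H2A probes ran the other way by its values. ILMN_1246108 of *H2ac12* had 9.66, 10.01, 10.46 and 9.32 on the null arrays and 10.39, 10.04, 10.49 and 10.38 on the wildtype arrays. Null replicates 1, 2 and 4 lay below all wildtype arrays and null replicate 3 among them, and the difference did not pass (-0.47 ± 0.22, adjusted p = 0.122). Without null replicate 3 it passed, at -0.66 (adjusted p = 0.0231), and without null replicate 4 it was -0.29 and did not pass. The other *H2ac12* probe, *H2ac7* ILMN_2795040, *H2ac11* and *H2ac15* had differences of -0.28, -0.39, -0.35 and -0.37, with adjusted p of 0.256 to 0.411. Without null replicate 4, where the H2A mean was lowest, the 5 probes lay between -0.29 and -0.025. They are the ones called lower when wildtype replicate 3 and null replicates 2 and 3 were left out. There their log2 differences were -0.65 to -0.78, with adjusted p of 0.012 to 0.0365. The 5 were picked by this fit, so its p-values are no support for them as a group. That fit kept null replicates 1 and 4 and wildtype replicates 1, 2 and 4, without the arrays of highest H2A mean in each genotype. In that fit 4 histone probes were higher and 5 lower, where 33.6% of all probes were called. With the splicing regulators as a covariate 8 H2A probes were lower, the 5 above and those of *H2ac10* (ILMN_1252136), *H2ac20* (ILMN_1218380) and *H2ac21*, with adjusted p of 0.0126 to 0.0472, and 1 histone probe, *H2bu2*, was higher. These were 13.8% of the histone probes, where 5.64% of all probes were called. With scaling by the median absolute deviation ILMN_1246108 turned to 0.10 (adjusted p = 0.824), and the 5 probes lay between 0.10 and 0.52. In the other alternatives fitted per probe all of them that were tested lay below 0, so that the arrays used change the call of these probes and this scaling their direction.

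**Figure D3:**
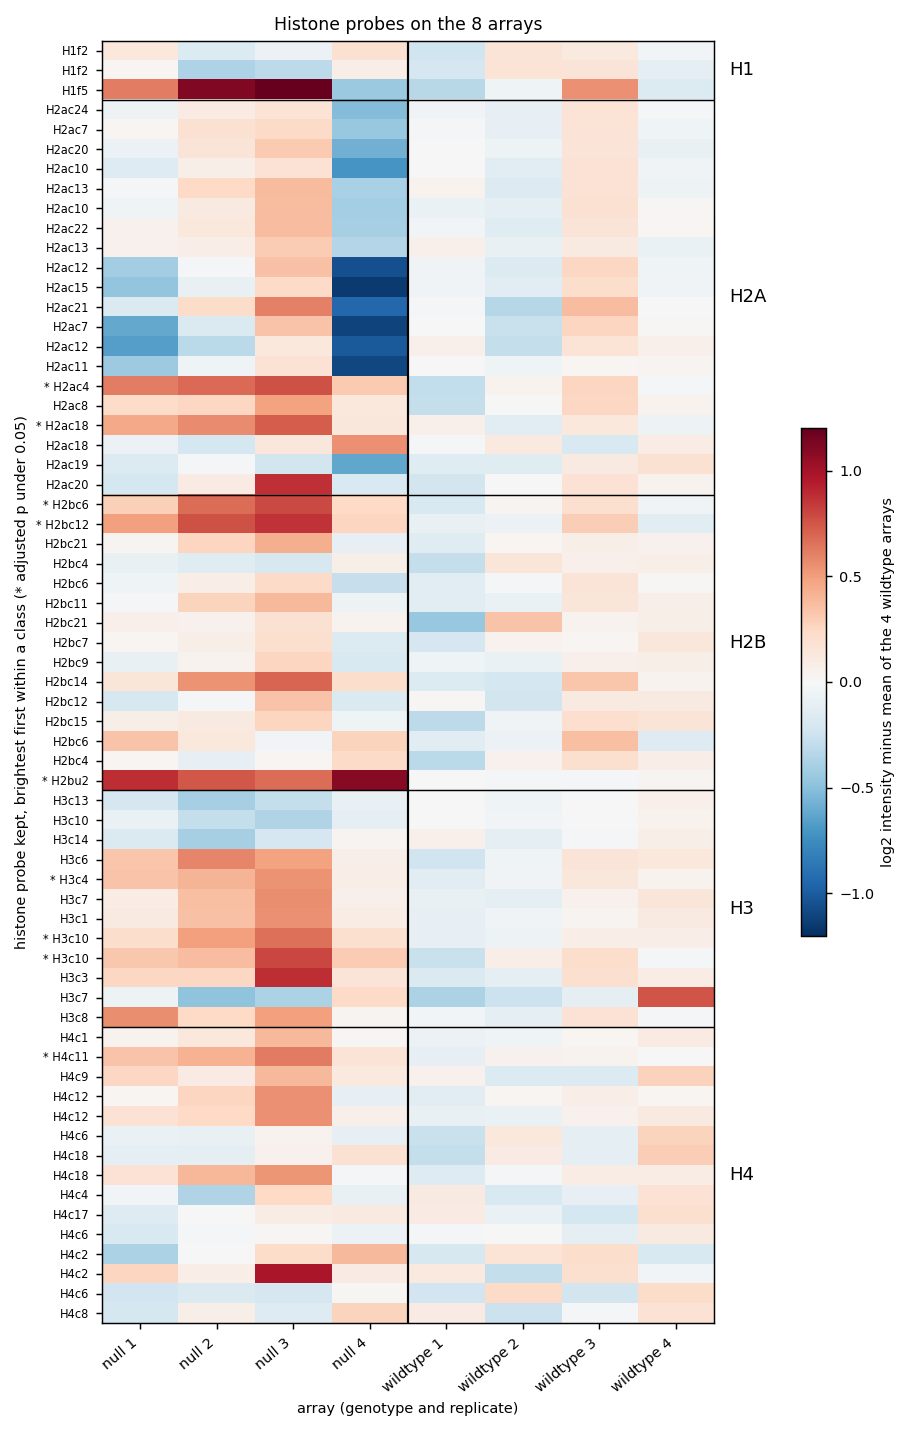
Log2 intensity of the 65 histone probes on each array, minus the mean of the 4 wildtype arrays, null arrays left and wildtype arrays right, ordered by class and brightness, with an asterisk at adjusted p under 0.05. Null replicate 3 is the highest null array at 46 probes, and the 14 brightest H2A probes are blue on null replicate 4.

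The difference between arrays of 1 genotype was the most regular feature of the histones. Null replicate 3 was the highest null array at 46 of the 65 probes (70.8%), where 29.7% of all probes had it highest. Null replicate 4 was the lowest null array at 42 (64.6%, against 33.8% of all probes), and both held at 39 (60.0%, against 17.3%). In H2A both held at 17 of 20 probes. Wildtype replicate 3 was the highest wildtype array at 35 of 65 probes (53.8%, against 36.4%) and at 17 of 20 H2A probes. The range over the null arrays was larger than the difference of the genotype means at 63 of the 65 probes (96.9%), against 66.3% of all probes. These counts describe the probes and carry no test, since probes on 1 array share its RNA.

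Averaged over the 20 H2A probes and relative to the wildtype mean of each probe, the arrays stood at -0.11, 0.10, 0.34 and -0.49 (null replicates 1 to 4) and at -0.05, -0.11, 0.16 and 0.00 (wildtype replicates 1 to 4). The 15 H2B probes stood at 0.13, 0.23, 0.34 and 0.09 on the null arrays and at -0.17, -0.01, 0.15 and 0.04 on the wildtype arrays. The H3 and H4 probes had their highest null value on null replicate 3 too, at 0.31 and 0.29. The fall on null replicate 4 below every wildtype array was seen in H2A alone of these 4 classes.

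Markers of other cell types moved with these arrays. Of 11 erythroid genes 8 were tested and 0 passed in limma (3 at an unadjusted p under 0.05), *Gata1* was not kept, and the mean of the 8 stood at 1.97, 2.60, 3.15 and -1.17 on the null arrays and at 0.30, -0.01, 0.80 and -1.08 on the wildtype arrays. The order of the null arrays, highest on replicate 3 and lowest on replicate 4, is that of the H2A probes. The macrophage, endothelial and gut and pancreas epithelium markers had this order of the null arrays too. In wildtype the erythroid markers were lowest on replicate 4 and the H2A probes on replicate 2. Their summed level (log2 of the summed intensity) ranged from 9.78 to 14.74 in null and from 10.18 to 12.40 in wildtype, and the globin *Hbb-y* alone had 11.99, 12.87, 13.34 and 8.33 on the null arrays and 11.21, 9.76, 11.48 and 9.20 on the wildtype arrays. Of the gut and pancreas epithelium markers 4 of the 5 tested were higher in null (*Krt8*, *Krt18*, *Cdh1* and *Cldn6*), with a summed level of 8.60 to 10.38 in null and 8.11 to 8.55 in wildtype, and *Pdx1* and *Ptf1a*, which define pancreatic epithelium, were not kept. The macrophage markers (0 of 5 passed, also without adjustment) were summed to 8.13 to 9.94 in null and 8.70 to 9.33 in wildtype. Of the 6 endothelial markers tested *Tek* was lower in null and passed. The other 5 had positive differences and did not pass. The endothelial list had 3 genes at an unadjusted p under 0.05 and a median log2 difference of 0.76. Its sums were 9.63 to 11.11 in null and 9.76 to 10.45 in wildtype. The mesothelial markers passed at 0 of 2 genes, also without adjustment, with sums of 8.25 to 9.19 in null and 8.39 to 9.31 in wildtype. The part of these cells in the histone values was not tested.

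**Figure D4:**
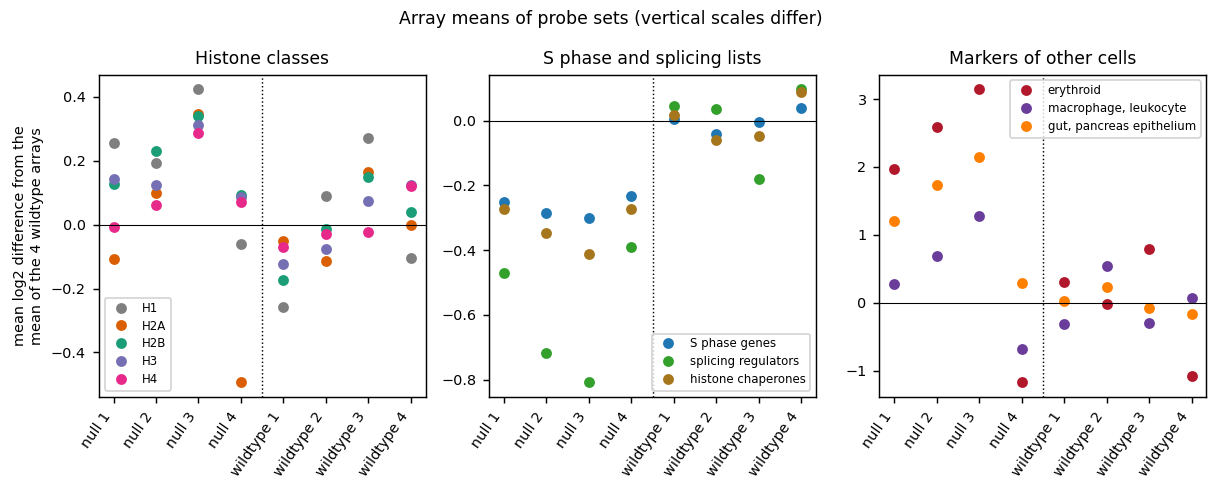
Mean log2 difference from the wildtype mean on each array, null left of wildtype, for the histone classes (left panel), the S phase, splicing regulator and histone chaperone lists (middle) and markers of other cells (right), on separate vertical scales. H2A and the erythroid markers are both highest on null replicate 3 (0.34 and 3.15) and lowest on null replicate 4 (-0.49 and -1.17). Among the null arrays the macrophage and epithelium markers are highest and lowest on the same replicates.

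H2B genes gave 3 of the 9 calls. *H2bu2*, an H2B gene on chromosome 11 outside the larger clusters, was above background on 4 of 4 null arrays and 0 of 4 wildtype arrays. Its values were 5.39, 5.25, 5.17 and 5.60 in null and 4.50, 4.49, 4.49 and 4.53 in wildtype, so null was at least 1.18-fold higher (adjusted p = 0.000542). It passed the filter through null alone, so it had to differ. The bound sets each wildtype array at the lowest level above background on it. *H2bu2* is dim, and null replicate 4 was its highest and null replicate 3 its lowest null array, the reverse of most other histone probes.

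*H2bc12* ILMN_2655785 had 9.92, 10.19, 10.29 and 9.68 on the null arrays and 9.34, 9.36, 9.72 and 9.29 on the wildtype arrays. Only null replicate 4 and wildtype replicate 3 crossed, and the difference was 0.59 ± 0.15 (adjusted p = 0.015). Its other probe, ILMN_2636781, read 7.09, 7.27, 7.63 and 7.11 in null and 7.29, 7.06, 7.39 and 7.39 in wildtype, a difference of -0.01 ± 0.14 (adjusted p = 0.963). *H2bc6* ILMN_1252995 had 9.91, 10.29, 10.42 and 9.86 on the null arrays and 9.45, 9.66, 9.82 and 9.58 on the wildtype arrays, without overlap (0.50 ± 0.15, adjusted p = 0.0255). The other *H2bc6* probes had differences of -0.00 and 0.18, and ILMN_1252995 itself lost its call when any of 5 arrays was left out. *H2bc14* had 7.41, 7.80, 7.96 and 7.47 in null and 7.10, 7.05, 7.59 and 7.31 in wildtype, which overlap (0.40 ± 0.16, adjusted p = 0.0768). The 8 other H2B probes that passed the filter had differences of -0.09 to 0.16.

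H2A and H2B genes are often paired head to head, and 9 such pairs start within 600 bases of each other in RefSeq. Probes of both partners passed the filter in 4 pairs. *H2ac12* had differences of -0.47 and -0.28 beside -0.01 and 0.59 for *H2bc12*. *H2ac15* had -0.37 beside 0.10 for *H2bc15*, *H2ac11* had -0.35 beside 0.14 for *H2bc11*, and *H2ac7* had -0.39 and -0.00 beside 0.03 for *H2bc7*. In all 4 pairs the H2A values lay below the H2B values. Apart from *H2ac7* ILMN_1226839 these H2A probes are the 5 of the lower group above, so this is no separate observation. The 5 lay between 0.10 and 0.52 with scaling by the median absolute deviation, and between -0.29 and -0.025 without null replicate 4. Within a pair only *H2bc12* ILMN_2655785 passed the test, and the difference between partners was not tested.

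H3 had the highest class median, 0.30 over 12 probes, with 8 above 0 and 4 below. *H3c10* was read by 3 probes. ILMN_2698519 had 8.88, 9.15, 9.33 and 8.86 on the null arrays and 8.57, 8.60, 8.74 and 8.75 on the wildtype arrays, and ILMN_2860616 had 7.88, 7.93, 8.36 and 7.86 on the null arrays and 7.29, 7.64, 7.76 and 7.54 on the wildtype arrays. Both were without overlap and called, by 0.39 ± 0.12 and 0.45 ± 0.15 (adjusted p = 0.0313 and 0.0344). These calls were lost in 10 and 11 of 21 alternatives, among them the omission of any of 5 arrays, and both differences turned to -0.14 with the mean level of splicing regulators as a covariate. ILMN_2592253 had 12.29, 12.09, 12.01 and 12.26 in null and 12.36, 12.34, 12.37 and 12.41 in wildtype. Here null lay below all wildtype arrays, a difference of -0.21 ± 0.09 that did not pass (adjusted p = 0.0918). The 3 probes of *H3c10* thus did not give 1 value for the gene.

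*H3c13*, from the chromosome 3 cluster and the brightest H3 probe, resembled the last of these. It had 12.57, 12.38, 12.48 and 12.68 on the null arrays and 12.77, 12.72, 12.76 and 12.83 on the wildtype arrays. The genotypes did not overlap, with a difference of -0.24 ± 0.09 just outside the threshold (adjusted p = 0.0566), and it was called lower in 6 alternatives (adjusted p of 0.026 to 0.0456). With scaling by the median absolute deviation it turned to 0.71 (adjusted p = 0.16). *H3c14* of the same cluster had -0.18 ± 0.11 (adjusted p = 0.196).

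*H3c4* had 10.70, 10.76, 10.89 and 10.43 on the null arrays and 10.22, 10.31, 10.50 and 10.40 on the wildtype arrays. Null replicate 4 lay within the wildtype range, and the difference was the last inside the threshold (0.34 ± 0.12, adjusted p = 0.0432). It lost its call in 12 of 22 alternatives, among them the omission of any of 6 arrays. Its other probe was detected on no array. *H3c6* (0.37, adjusted p = 0.0577), *H3c8* (0.33, adjusted p = 0.0699), *H3c3* (0.39, adjusted p = 0.0944) and *H3c1* (0.27, adjusted p = 0.0964) had values of similar size and did not pass.

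H4 proteins are encoded by many genes with the same product, and their probes differed little. *H4c11* was the only one called, with 8.89, 8.96, 9.17 and 8.71 on the null arrays and 8.45, 8.60, 8.59 and 8.55 on the wildtype arrays. The genotypes did not overlap (0.38 ± 0.11, adjusted p = 0.0208), and the call was lost without wildtype replicate 1 or wildtype replicate 4. The brightest H4 probe, *H4c1*, had 9.18, 9.27, 9.53 and 9.15 in null and 9.07, 9.09, 9.17 and 9.24 in wildtype, which overlap (0.14 ± 0.11, adjusted p = 0.301). *H4c12* ILMN_1243654 and *H4c18* ILMN_2937548 had 0.26 ± 0.12 and 0.27 ± 0.13 (adjusted p = 0.11 and 0.124), and their other probes 0.18 and 0.00. *H4c2* ILMN_2525620 had 5.39, 5.21, 6.11 and 5.23 in null and 5.25, 4.85, 5.33 and 5.10 in wildtype. Its difference of 0.35 ± 0.21 (adjusted p = 0.191) thus rests on null replicate 3. The other *H4c2* probe tested, ILMN_1213257, had 0.06 ± 0.18 (adjusted p = 0.82), with null replicate 4 its highest null array.

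H1 probes passed the filter for 2 genes only. *H1f5* had 6.61, 7.11, 7.65 and 5.55 on the null arrays and 5.66, 5.94, 6.54 and 5.83 on the wildtype arrays. Its null arrays ran from below to above all wildtype arrays, and the difference of 0.73 ± 0.40 did not pass (adjusted p = 0.167). Without null replicate 4 it was 1.13 and passed (adjusted p = 0.00877). *H1f2* was read by 2 probes, at 0.02 ± 0.12 and -0.14 ± 0.14 (adjusted p = 0.927 and 0.431).

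**Figure D5:**
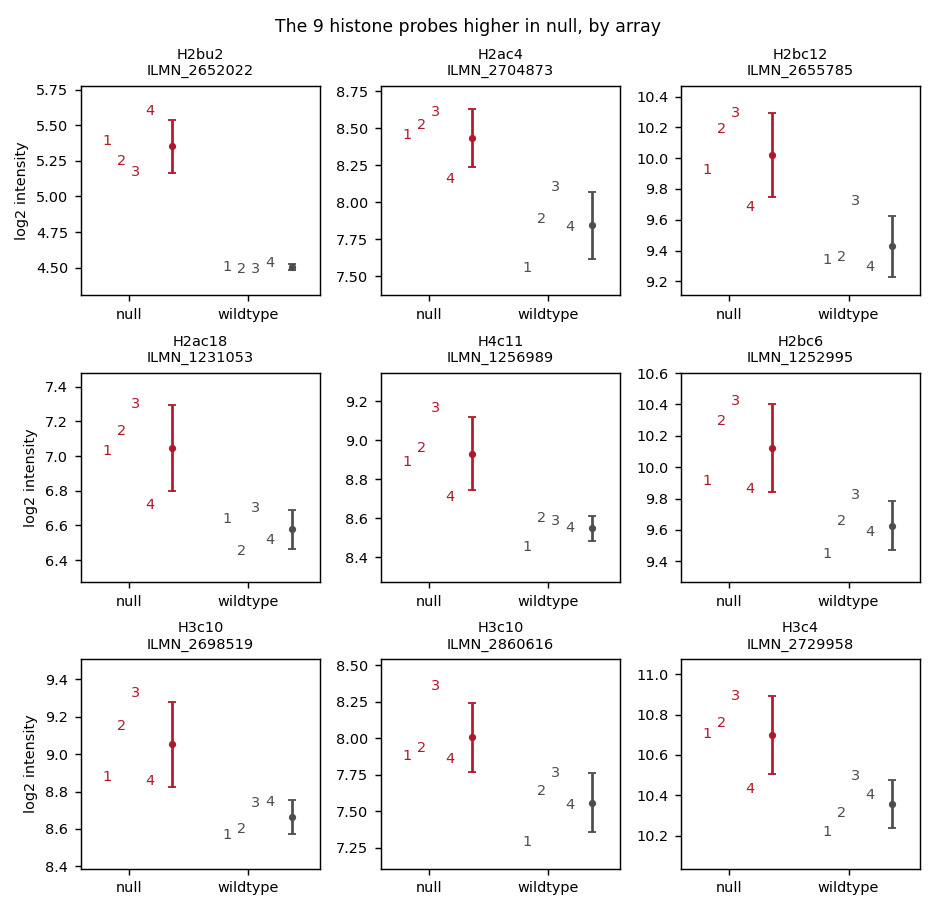
Log2 intensity of the 9 histone probes called higher in null, 1 panel per probe, with each array shown as its replicate number, null left of wildtype, and the mean ± SD of the 4 arrays as a point with a bar. Null replicate 3 is the highest null array in 8 of the 9 panels, and *H2bu2* is the exception.

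Genes that act with these histones were set beside them from lists of known function, and their counts stand beside 21.6% higher and 20.3% lower over all probes. Each listed gene was read by its brightest kept probe, while these shares count every probe tested. Over the brightest probe of each gene, 2909 of 10765 were higher and 1909 lower, with p adjusted over these alone. Of 16 replication-independent histone genes 10 were tested, 2 were higher in null and 4 lower. The linker histone *H1f10* (0.65 ± 0.11) and *H2aj* (0.95 ± 0.12) were higher, and *H2az1* (-0.88 ± 0.16), an H2A variant placed outside replication, and *H3f3a* (-0.92 ± 0.19), which encodes H3.3, were lower, all 4 without overlap. Their mRNAs are polyadenylated. *H3f3b*, which also encodes H3.3, was brighter than *H3f3a* and did not pass (-0.08 ± 0.10, adjusted p = 0.526). Of 29 genes tested for histone mRNA transcription and 3′ processing 4 were higher and 6 lower. The scaffold of the cleavage complex *Sympk* was higher (0.61 ± 0.16). The cyclin *Ccne2*, partner of the kinase that starts histone transcription, was lower (-2.20 ± 0.41). *Ccne2* was above background on 2 of 4 null arrays only, so its null mean lies partly at background. The other cyclin E, *Ccne1*, did not pass (0.12 ± 0.12, adjusted p = 0.439). Of 25 histone chaperones 2 were higher and 10 lower, among these *Nasp*, which stores H3 and H4 (-0.61 ± 0.11), *Anp32e*, which removes H2A.Z (-0.98 ± 0.15), and the histone-binding protein *Rbbp7* (-2.59 ± 0.44). Of 39 S phase genes 1 was higher and 12 lower, with the replication licensing factor *Cdc6* at -0.49 ± 0.09 and the ubiquitin ligase adaptor *Dtl* at -1.64 ± 0.23. *Dtl* was above background on 4 of 4 wildtype arrays and 0 of 4 null arrays. It passed the filter through wildtype alone, so it had to differ, and its null values are background. The splicing regulators had 1 higher and 14 lower of 26.

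The medians of these lists were -0.14 for the replication-independent histones, -0.07 for transcription and 3′ processing, -0.16 for the chaperones, -0.14 for the S phase genes and -0.35 for the splicing regulators, beside 0.0416 for all probes. The median over the brightest probe of each gene was 0.094. With scaling by the median absolute deviation those of the S phase genes, chaperones and splicing regulators turned to 0.33, 0.33 and 0.25, where the median of all probes was 0.29. In the covariate fit 0 of the S phase genes and 0 of the chaperones passed in either direction, with 3 of each at an unadjusted p under 0.05. On the arrays the splicing regulators stood at -0.47, -0.72, -0.81 and -0.39 in null and at 0.05, 0.04, -0.18 and 0.10 in wildtype, lowest on the replicate 3 of each genotype, where the H2A probes were highest. The S phase genes stood at -0.25, -0.29, -0.30 and -0.23 in null and at 0.01, -0.04, -0.00 and 0.04 in wildtype, so their null arrays lay close together. The part of the level of the splicing regulators in the histone values was not tested beyond the covariate fit.

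Genes with several probes show how far apart probes under 1 symbol lay, and whether they read the same transcript was not examined. In 17 genes 2 or 3 probes passed the filter, 8 of them had probes of opposite sign, and the median gap between the highest and the lowest difference was 0.19. The gap was over 0.5 for *H2bc12* and *H3c10*, which are among the genes called. By position, 54 of the 65 probes lay in genes of chromosome 13 (7 called, median 0.04), 10 in genes of chromosome 3 (1 called, median 0.02) and 1 in *H2bu2* on chromosome 11.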

How the data were processed

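RNA of the sorted cells was labelled and hybridized to Illumina MouseWG-6 v2 BeadChips, 1 array per sample. The authors made intensity values per probe in GenomeStudio (version not given), subtracted background there and deposited them without scaling the arrays to each other. The p-value columns the authors deposited hold 1 minus the detection p, and 1 minus each value was used. The second table the authors deposited holds log2 values, which are the log2 signal less the array median and a baseline per probe of unstated source. Columns mapped to no sample were not found.

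The tables were joined by their profiles over the 8 arrays, and 34536 of 45281 probes matched 1 row, including all 19841 tested. Signals were normalized by neqc (offset 16) in limma 3.58.1 (statmod 1.5.0, R 4.3.3), kept at a detection p under 0.05 on at least 4 arrays, and compared by lmFit and eBayes, two-sided, with Benjamini-Hochberg adjustment over all probes tested. Fold bounds set a probe not above background at the array's lowest level above background.

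Named are, per class, the brightest probe and the 4 with the largest moderated t, all other probes of their genes, and up to 4 genes per list. Members and lists were chosen with earlier results of these data known, and genes named beyond the rule were chosen after their values were seen. Symbols came from the platform annotation, updated through RefSeq. The authors' fold changes were not used. Protein sequences were not used here.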

Additional observations from a re-analysis of the deposited data

Results flagged for a closer look

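Within each genotype the 4 arrays were examined for 1 array far from the other 3, over 54 groups of values (the named probes and the class means). Chance alone marks about 1 in 20 such groups, and 2 were found. *H2bc12* ILMN_2655785 stood at 9.72 on wildtype replicate 3, where the other wildtype arrays had 9.29 to 9.36. *H3c10* ILMN_2860616 stood at 8.36 on null replicate 3, where the other null arrays had 7.86 to 7.93. Both arrays were the highest of their genotype for most histone probes.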

How the results depend on the processing

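The count of 9 histone probes higher in null was 2 with median centring, 5 by an analysis of variance per probe on the same values, 1 with the splicing regulators as a covariate, and 4 without wildtype replicate 3 and null replicates 2 and 3. The count of 0 lower was 1 with an offset of 50, with detection on all arrays at p under 0.01, with the brightest probe or the mean of all probes per gene and by the analysis of variance (*H3c13* each time), 8 with the covariate and 5 without the 3 arrays. The median log2 difference of 0.046 was 0.40 with median absolute deviation scaling, which moved the median of all probes to 0.29, and -0.22 with the covariate. Leaving out 1 array at a time gave 3 to 14 higher, 0 to 1 lower and medians of 0.0023 to 0.14.

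The fit with the replicate number as a block called 12 higher and 0 lower, median 0.046. Among the named probes it added *H1f5* (adjusted p = 0.0493) and *H2bc14* (adjusted p = 0.0333). No label says what a number marks. Deviations of same-numbered arrays correlated at 0.17, 0.07, 0.38 and 0.41, and numbers 3 and 4 but not 1 and 2 matched best to their own, so the numbers were not taken as pairs.

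Of 21 named probes over 22 alternatives, 28 values turned in sign. With median absolute deviation scaling these were *H1f2* ILMN_2855315 (0.29), *H2ac24* (1.23), *H2ac12* (0.10) and *H3c13* (0.71), with median centring *H1f2* ILMN_2774537 (-0.12), with the value table *H2ac24* (0.080) and with the mean per gene *H1f2* (-0.064). With the covariate they were *H1f5* (-1.57), *H1f2* ILMN_2855315 (0.18), *H2ac18* (-0.13), *H2ac8* (-0.22), *H2bc6* (-0.28), *H2bc12* (-0.26), *H2bc14* (-0.41), *H3c13* (0.013), *H3c10* (-0.14 at both probes), *H3c4* (-0.14), *H4c1* (-0.19), *H4c11* (-0.033), *H4c12* (-0.17), *H4c18* (-0.30) and *H4c2* (-0.40). *H1f2* ILMN_2855315 was 0.10 without the 3 arrays, ILMN_2774537 lay at -0.064 to 0.077 without 1 array and *H2ac24* at -0.16 to 0.067. The causes were not tested.

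The number of arrays limits precision, and dim probes such as *H2bu2* lie close to background. No slide or scan position was used.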
